A study of Homo sapiens with 4 samples.

Results

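Cyclin-dependent kinase (CDK) inhibitors are small proteins that hold back the kinases of the cell cycle. The CIP/KIP family, which includes p21 (CDKN1A) and p57 (CDKN1C), binds complexes of cyclins with CDKs, above all those of CDK2. The INK4 family, p16 (CDKN2A), p15 (CDKN2B), p18 (CDKN2C) and p19 (CDKN2D), binds CDK4 and CDK6 and keeps them from D-type cyclins. In intestinal epithelium these inhibitors are known for their part in the exit of cells from the cycle. CDKN3 shares their naming but is a phosphatase that removes an activating phosphate from CDKs, so it is given apart.

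The data cover 7 genes, CDKN1A, CDKN1C, CDKN2A, CDKN2B, CDKN2C, CDKN2D and CDKN3, and every probe set whose gene symbol in the platform annotation is one of them. They have 15 of the 54613 probe sets other than controls. No probe set carried the symbol CDKN2C in the annotation used here, so that gene was not analysed here.

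RCM-1 is a human colorectal cancer cell line from a well-differentiated tumour of the rectum. The cells were given 1 mM methylthioacetic acid (MTA), a small sulphur compound that the study used to bring on dome-shaped structures in this line, over 6, 12 or 18 h, followed by vehicle medium with acetonitrile up to the harvest 24 h after MTA addition. They thus spent 18, 12 and 6 h without MTA, so that longer treatment and shorter recovery cannot be told apart. The 0 h cells had no MTA and served as the control for every ratio, and whether they too were kept to 24 h is not given in the sources used here. Each time has 1 array. No test was therefore possible between times, and precision is limited by the single array at each time.

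Values are MAS5 signals, which are intensities on a linear scale. As many probe sets as the study counts as detected were kept, by mean log2 signal over the 4 arrays, and the lowest mean signal among them was 34.0. Of the members, 10 probe sets from 5 genes were kept, and 5 probe sets were too dim. Neither probe set of CDKN2D was kept. Where a gene had several kept probe sets, the brightest by mean signal stood for it. The only measure of error is the spread between probe sets of the same gene. The 2 brightest kept ones had log2 ratios to 0 h that differed over 4676 genes with an SD of 0.41, 0.42 and 0.48 after 6, 12 and 18 h. This spread is within arrays and says nothing of variation between cultures.

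The arrays were not level with each other. The median log2 ratio to 0 h over all kept probe sets was 0.12, −0.28 and −0.45 after 6, 12 and 18 h, so each ratio is given with the deposited scaling and, where named so, relative to this median. All 10 colorectal epithelial markers, EPCAM and KRT20 among them, had a kept probe set, as did none of 5 fibroblast and 4 leukocyte markers and 1 of 3 endothelial markers, PECAM1, with a signal of 41.1 at 0 h. The ratio of the 3′ to the 5′ GAPDH control, a sign of RNA quality, lay between 1.44 and 1.64 on the 4 arrays.

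The upstream regions of 3 members are shown here because their genes stood for the 3 time courses described below, in CDKN1A a high at 6 and 12 h, in CDKN2B a higher signal on all MTA arrays and in CDKN3 a course near that of the mitotic genes. Each is the stretch of 250 bases before a RefSeq transcript start in GRCh38.p14, on the strand of the gene, and RefSeq promoter entries were found for 6 of the 7 genes. They are CDKN1A at chr6:36678464-36678713 on the plus strand, CDKN2B at chr9:22009306-22009555 on the minus strand and CDKN3 at chr14:54396757-54397006 on the plus strand. Capitals mark the GC box GGGCGG, on either strand, in CDKN1A and CDKN2B, and the cell-cycle homology region TTTGAA, on either strand, in CDKN3.
CDKN1A: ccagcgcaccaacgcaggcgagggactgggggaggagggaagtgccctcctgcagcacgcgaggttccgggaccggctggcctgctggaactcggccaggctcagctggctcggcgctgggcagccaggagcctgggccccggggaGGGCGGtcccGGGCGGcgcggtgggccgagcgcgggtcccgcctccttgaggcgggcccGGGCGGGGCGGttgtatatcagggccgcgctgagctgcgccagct
CDKN2B: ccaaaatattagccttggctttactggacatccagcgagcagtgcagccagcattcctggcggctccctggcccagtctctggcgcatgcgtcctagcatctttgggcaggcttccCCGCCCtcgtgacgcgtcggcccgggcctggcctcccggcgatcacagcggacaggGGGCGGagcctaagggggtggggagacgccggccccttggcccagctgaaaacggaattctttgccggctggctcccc
CDKN3: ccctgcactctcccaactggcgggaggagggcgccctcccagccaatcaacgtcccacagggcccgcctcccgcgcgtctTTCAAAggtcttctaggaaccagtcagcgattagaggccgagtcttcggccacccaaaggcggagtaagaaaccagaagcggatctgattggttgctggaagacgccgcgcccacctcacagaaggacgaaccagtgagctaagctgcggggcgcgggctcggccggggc

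The GC box is the element read by SP1 and its relatives, and the p21 promoter is a textbook case of it. The CDKN1A stretch held 4 matches, starting 104, 94, 45 and 40 bases before the transcript start, the last pair overlapping. The CDKN2B stretch held 2, at 134 and 78 bases, and that of CDKN3 none. At least 1 match stood in 42.6% of all 35116 promoter entries of the same length. The cell-cycle homology region is known from promoters of genes used late in the cycle. It stood 170 bases before the start of CDKN3 and in none of the stretches of CDKN1A and CDKN2B, and 13.3% of all entries held it. These are matches of letters and no evidence that a factor binds there.

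CDKN1A, the gene of p21, a target of p53 that binds CDK2 complexes and the replication clamp PCNA, had its highest signals after 6 and 12 h of MTA. Its probe set 202284_s_at had signals of 282, 580.1, 495 and 278 on the 0, 6, 12 and 18 h arrays. The 6 and 12 h arrays lay far above the other 2, which were nearly level. The log2 ratio to 0 h was 1.04 at 6 h (2.05-fold), 0.81 at 12 h and −0.02 at 18 h. In bulk RNA, a change in the number of expressing cells and in the RNA per cell cannot be told apart.

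The CDKN1A signal at 12 h differed from that at 6 h by −0.23 on the log2 scale, which is within the probe set spread for these arrays (SD 0.39). Its sign turned with the scaling, the 12 h signal being the higher in 5 of 8 settings, within the SD in each. The 18 h signal differed from the 12 h signal by −0.84 and from the 6 h signal by −1.06, and both differences stayed beyond the SD under the 8 settings. The difference of 18 h from 6 h was negative under all 8 scalings and pseudocounts tried, but ran from −1.06 to −0.45. The median of all kept probe sets on the 18 h array lay at −0.45 with the deposited scaling. Relative to the median of all kept probe sets CDKN1A stood at 0.92, 1.09 and 0.43 after 6, 12 and 18 h. At 18 h its ratio to 0 h was within 0.03 of 0 with the deposited scaling, the median signal, the hybridization controls and the pseudocount, and lay between 0.23 and 0.50 in the other 4 settings. A ratio as high or higher was found in 4.61% of kept probe sets at 6 h, in 4.20% at 12 h and in 22.9% at 18 h. A gene with 1 probe set offers no check by another.

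CDKN1C, the gene of p57, a CIP/KIP inhibitor that is expressed from 1 parental copy, was higher on all 3 MTA arrays than at 0 h. Its brightest probe set, 213348_at, had 876, 1279.6, 1464 and 1255 on the 0, 6, 12 and 18 h arrays, or log2 ratios of 0.55, 0.74 and 0.52. Each of its 4 kept probe sets had its lowest signal at 0 h. Probe set 219534_x_at had 207, 351, 411 and 323 at 0, 6, 12 and 18 h, and 216894_x_at had 184, 289, 281 and 235. The weakest response was that of 213182_x_at, at 201, 219, 252 and 239, whose ratio of 0.12 at 6 h equalled the median of all kept probe sets. Over the 4 the log2 ratios ran from 0.12 to 0.76 at 6 h, from 0.32 to 0.99 at 12 h and from 0.25 to 0.65 at 18 h.

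The suffix _x_at marks probe sets in which some probes also match other transcripts, so the 3 of that kind are less certain readings of CDKN1C. With the deposited scaling the 12 h array was the highest for 3 of the 4 kept probe sets, and 6 h for 216894_x_at. Relative to the median of all kept probe sets the brightest was at 0.43, 1.02 and 0.97 at 6, 12 and 18 h. Unlike CDKN1A, its signal at 18 h was close to that at 6 h, at a log2 difference of −0.03 with the deposited scaling, though 18 h was above 6 h by more than the SD between probe sets in 4 of the 8 settings. The last of its probe sets, 219533_at, was far below the filter, at 1.25, 1.78, 2.12 and 3.73, and its log2 ratio of 1.57 at 18 h rests on such dim readings.

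**Figure D1:**
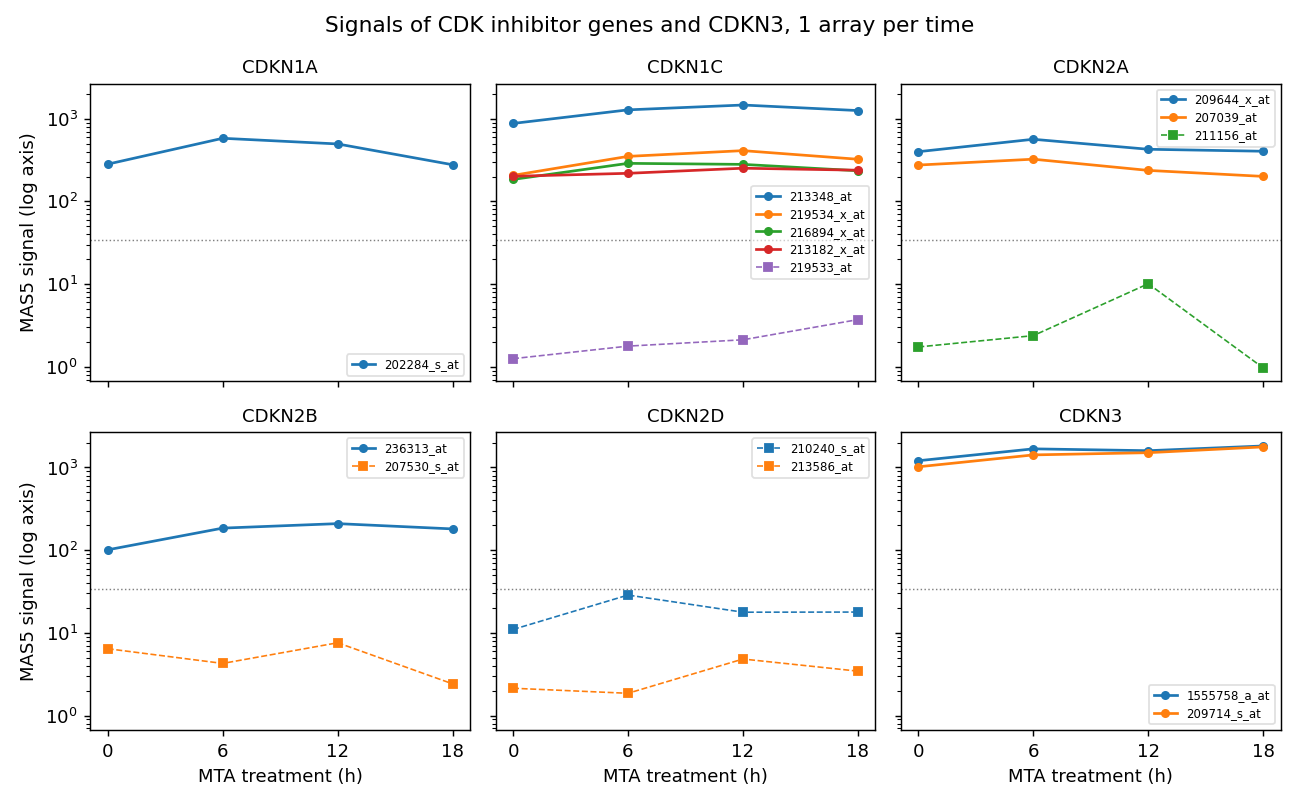
MAS5 signals (log axis) of the 15 member probe sets against hours of MTA treatment, 1 array per time, with solid lines for kept probe sets, dashed lines for dim ones and a dotted line at 34.0, the lowest mean signal kept. As deposited, CDKN1A has 580.1 at 6 h and 278 at 18 h, CDKN1C and the kept CDKN2B probe set stay above their 0 h signals on all 3 MTA arrays, and both CDKN2D probe sets lie under the dotted line throughout.

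The INK4 members differed in their courses. CDKN2B, the gene of p15, which TGF-beta signalling is known to induce, had signals of 101, 185, 209.6 and 181 on the 0, 6, 12 and 18 h arrays on probe set 236313_at. All 3 MTA arrays were above 0 h, by log2 ratios of 0.87, 1.05 and 0.84, and among themselves they differed by at most 0.21 with the deposited scaling, within the probe set spread. Relative to the median of all kept probe sets the ratios were 0.76, 1.33 and 1.29, and 12 h was above 6 h by more than the SD of 0.39 in 5 of the 8 settings, so the level course holds with the deposited scaling but not with these. At 18 h 3.72% of kept probe sets had a ratio as high or higher. Of the members with a kept probe set CDKN2B had the highest ratio by its representing probe set at 12 and 18 h, and CDKN1A at 6 h, an order that held under the 8 scalings and pseudocounts tried.

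The other CDKN2B probe set, 207530_s_at, did not share this course. Its signals were 6.44, 4.28, 7.60 and 2.42 at 0, 6, 12 and 18 h, far under the filter, with log2 ratios of −0.59, 0.24 and −1.41. The higher CDKN2B signal on the MTA arrays thus rests on 1 probe set, and with the mean of both, which lets the dim one count equally, the log2 ratio is 0.14, 0.65 and −0.29 after 6, 12 and 18 h. CDKN2B lies within the span of CDKN2B-AS1, a long noncoding RNA on the opposite strand, whose probe set was not among those kept.

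CDKN2A encodes p16 and, from another first exon and reading frame, ARF, which guards p53 by holding MDM2. Its brightest probe set, 209644_x_at, had 399, 564, 427 and 404 on the 0, 6, 12 and 18 h arrays, so that with the deposited scaling the 6 h array stood above the other 3, which lay close together. The log2 ratios were 0.50, 0.10 and 0.02. Relative to the median of all kept probe sets they were 0.38, 0.38 and 0.47, and after quantile normalization 0.43, 0.44 and 0.58, with no high at 6 h and the highest value at 18 h. Probe set 207039_at had 275, 324, 237 and 201, with ratios of 0.24, −0.21 and −0.46, the last near the median of all kept probe sets. The difference between the 2 probe sets, 0.264, 0.312 and 0.474, was within the SD between probe sets of a gene at each time when dim pairs were counted. Among genes whose pair had mean signals of 100 or more, as this pair had, the SD was 0.301, 0.309 and 0.365. Against that SD the difference was within it at 6 h, just beyond it at 12 h and beyond it at 18 h. By its suffix 209644_x_at has some probes that also match other transcripts, so it is a less certain reading of CDKN2A. The suffix of 207039_at is plain _at. Which transcripts each probe set detects is not given in the sources used here. The remaining one, 211156_at, was too dim to read, at 1.74, 2.38, 10.1 and 0.971, and its log2 ratio of 2.54 at 12 h rests on these values.

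CDKN2D, the gene of p19, had dim signals throughout. Probe set 210240_s_at had 11.0, 28.7, 17.8 and 17.9 on the 0, 6, 12 and 18 h arrays, and 213586_at had 2.14, 1.86, 4.83 and 3.45. On the first all 3 MTA arrays were above 0 h, with log2 ratios of 1.38, 0.69 and 0.70, but on the second the 6 h array was below it, at −0.20. Neither course can be read as a level of CDKN2D with confidence at such signals.

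CDKN3, the phosphatase, had nearly equal courses on its 2 probe sets. Probe set 1555758_a_at had 1207, 1681, 1597 and 1822 on the 0, 6, 12 and 18 h arrays, and 209714_s_at had 1019, 1419.7, 1510.3 and 1774. On both the 18 h array was the highest and the 0 h array the lowest with the deposited scaling, and for the brighter one 18 h was the highest in 7 of 8 settings. The log2 ratios of the pair were both 0.48 at 6 h, 0.40 and 0.57 at 12 h and 0.59 and 0.80 at 18 h. Relative to the median of all kept probe sets they were 0.36 at 6 h, 0.68 and 0.85 at 12 h and 1.04 and 1.25 at 18 h.

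**Figure D2:**
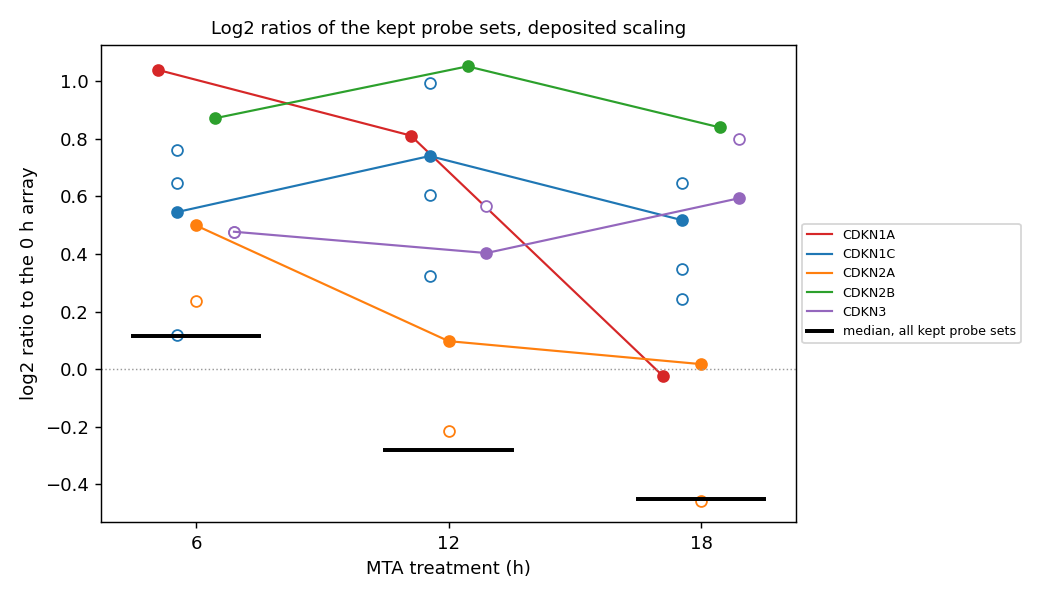
Log2 ratios to the 0 h array of the 10 kept member probe sets at 6, 12 and 18 h of MTA with the deposited scaling, filled points and lines for the probe set that represents a gene, open points for its other kept probe sets and black bars for the median of all kept probe sets. CDKN1A goes with 1.04, 0.81 and −0.02 while CDKN2B stays between 0.84 and 1.05, and the black bars lie at 0.12, −0.28 and −0.45.

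No kept member probe set had a log2 ratio beyond 1.5, the threshold of the study, at any time. Over all kept probe sets 1.28% were above 1.5 and 0.0334% below −1.5 at 6 h, 0.897% and 0.845% at 12 h, and 0.954% and 3.11% at 18 h. Beyond a ratio of 1, which is 2-fold, 1 of the 10 was higher at 6 h, CDKN1A, and 1 at 12 h, CDKN2B, against 5.09% and 2.67% of all kept probe sets. None was above 1 at 18 h, where 2.61% of all were. None was below −1 at any time, against 0.506% of all at 6 h, 6.42% at 12 h and 15.3% at 18 h. With so few probe sets these shares do not set the members apart. Without the filter 1 more was above 1.5 at 12 h and 1 at 18 h, the dim 211156_at and 219533_at.

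These counts depended on the scaling. With the arrays centred on the median of the kept probe sets none of the 10 was above 1 at 6 h, 4 were at 12 h and 4 at 18 h, where 3.67%, 5.10% and 6.82% of all kept probe sets were. The 10 include both probe sets of the phosphatase CDKN3, which is no inhibitor of this kind. Both were among the 4 at 18 h, and neither was among the 4 at 12 h. With the deposited scaling 10, 9 and 8 of the 10 had ratios above 0 at 6, 12 and 18 h, beside 62.5%, 27.9% and 21.9% of all kept probe sets, and 10, 10 and 9 were above the median of all kept probe sets. Both CDKN3 probe sets were above 0 and above that median at each time. By genes, the median log2 ratio of CDKN1A, CDKN1C, CDKN2A and CDKN2B was 0.71, 0.78 and 0.27 after 6, 12 and 18 h, beside 0.11, −0.28 and −0.47 over the 10505 genes that had a kept probe set.

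**Figure D3:**
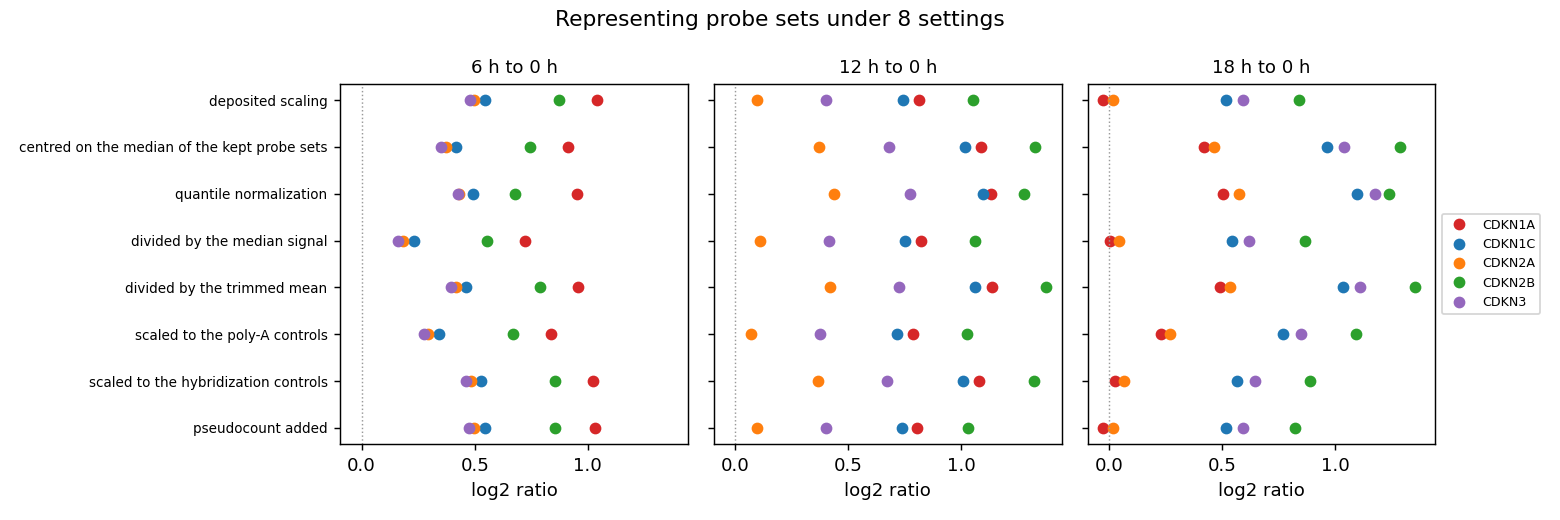
Log2 ratios to 0 h of the representing probe sets of 5 genes at 6, 12 and 18 h of MTA under 8 settings, the deposited scaling at the top. CDKN1A is the highest at 6 h and CDKN2B the highest at 12 and 18 h in every row, while the 18 h ratio of CDKN1A runs from −0.02 to 0.50 and that of CDKN2B from 0.82 to 1.36.

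The remaining CIP/KIP inhibitor, p27 (CDKN1B), did not follow p21 or p57. Its signals were 1764, 2191, 1522 and 1398 on the 0, 6, 12 and 18 h arrays, with log2 ratios of 0.31, −0.21 and −0.34, whose signs at 12 and 18 h turn relative to the median of all kept probe sets. The genes in the paragraphs that follow come from lists of known partners and regulators and are described by their representing probe sets. Of all genes that had a kept probe set, 15.8% were below −1 and 3.15% above 1 at 18 h. Taken against the median of all kept probe sets, a ratio at 18 h is higher by 0.45, so that ratios between −0.45 and 0 change sign.

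The kinases that the inhibitors act on, and the genes that work with them, differed among themselves. The list called INK4 targets has 8 genes: CDK4 and CDK6, which the family binds, the D-type cyclins and the retinoblastoma proteins. Of these 8, 1 was below −1 at 18 h and none above 1. Their median log2 ratio was −0.53 with the deposited scaling and 0.056 after quantile normalization. CDK4 itself was the lowest, with 1264 at 18 h against 2823 at 0 h (log2 ratio −1.16), followed by cyclin D1 (CCND1) at −0.84, with −0.16 on another of its probe sets. CCND2 and RBL2 were the highest at −0.25 and −0.35. Of 8 targets of p21 and p57, 4 were below −1 and none above 1 at 18 h, with a median of −0.77. The E-type cyclins CCNE2 and CCNE1, which activate CDK2 at entry into S phase, had −2.75 and −2.02. The mitotic cyclins CCNB2 and CCNB1 had 0.86 and 0.66. At 6 h the medians of the lists were 0.02 for the INK4 targets and 0.13 for those of p21 and p57, near that of all genes.

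Of 9 genes that mark p21 and its relatives for destruction, 4 were below −1 and none above 1 at 18 h. DTL, which directs p21 to the ubiquitin ligase of CUL4 and DDB1 in S phase, had −2.17, and CUL1, the scaffold of the ligase of SKP2, had −1.27. CDC20, an activator of the ligase that drives mitosis, had 0.45. CUL4B had −0.08 on its brightest probe set and up to 0.74 on its other kept ones. The list's median was 0.09, −0.24 and −0.82 at 6, 12 and 18 h.

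The genes of p53 and its known targets other than CDKN1A did not show a common course. With a kept probe set were 19 of 24 listed genes, and their medians were 0.28, 0.17 and −0.07, beside 0.11, −0.28 and −0.47 for all genes, the last value of the list being 0.46 after quantile normalization. At 18 h 1 was above 1 and 2 below −1. TP53INP1, which promotes autophagy and cell death, had 34.1, 131.7, 166.6 and 206 on the 0, 6, 12 and 18 h arrays. Its log2 ratio was 2.60 at 18 h, but the 0 h signal under it was close to the lowest mean signal kept, 34.0. Only 1 of the 3 probe sets of TP53INP1 was kept. The DNA damage protein DDB2 had 0.61 at 18 h. AEN, a nuclease of apoptosis, had −2.12 and TIGAR, a regulator of glycolysis, −1.95.

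Among 15 genes known to govern transcription of CDKN1A and CDKN2B, 4 were below −1 at 18 h and none above 1. MYC, which represses both genes through the zinc finger protein ZBTB17 (MIZ1), had 7421, 4211, 3032 and 2459 on the 0, 6, 12 and 18 h arrays, each array lower than the one before. Its log2 ratios were −0.82, −1.29 and −1.59. ZBTB17 had 72.7, 74.3, 39.0 and 22.1 and a ratio of −1.72 at 18 h, where its signal was below the lowest mean signal kept. At 18 h SMAD3, a carrier of TGF-beta signals, had 0.64 and FOXO1, an activator of CDKN1A, 0.52, after 0.79 and 1.31 at 6 h. The other kept probe set of each was lower, at −0.34 for SMAD3 and 0.17 for FOXO1 at 6 h. At 18 h these had −1.05 and −0.50. Whether any of these moved the inhibitors was not tested.

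The Polycomb genes that keep the INK4 locus silent in many cells were represented by 5 of 8 listed genes, counting the opposing demethylase KDM6B. Their median was 0.31, −0.38 and −0.67 at 6, 12 and 18 h, and the 6 h value was that of KDM6B itself. The other listed genes had no probe set with their symbol alone. EED had −1.35 and SUZ12 −0.93 at 18 h, CBX7 had 0.66 and KDM6B −0.09, with −1.10 on the other kept probe set of KDM6B. MTAP, a neighbour of CDKN2A on the chromosome, encodes the enzyme that breaks down methylthioadenosine. It had 308, 246, 168.5 and 105.6 on the 0, 6, 12 and 18 h arrays, a log2 ratio of −1.54 at 18 h on its brightest probe set and as high as −0.91 on another. The 3 neighbouring genes thus had different courses on these arrays: MTAP was lowest at 18 h, the brightest CDKN2A probe set was level with 0 h there with the deposited scaling, and the kept CDKN2B probe set was above it.

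The 12 mitotic genes listed beside CDKN3 had a median log2 ratio of 0.46, 0.37 and 0.73 after 6, 12 and 18 h, close to the 0.48, 0.40 and 0.59 of CDKN3. At 18 h 2 were above 1 and none below −1. They were the kinesin KIF20A at 1.86 and the kinetochore protein CENPF at 1.40, and the lowest were the transcription factor FOXM1 at −0.02 and the survival protein BIRC5 at 0.31. Other kept probe sets had ratios as low as 0.67 for CENPF and −0.12 for BIRC5. CCNB1 and CDK1 stand both in this list and among the targets of p21 and p57.

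**Figure D4:**
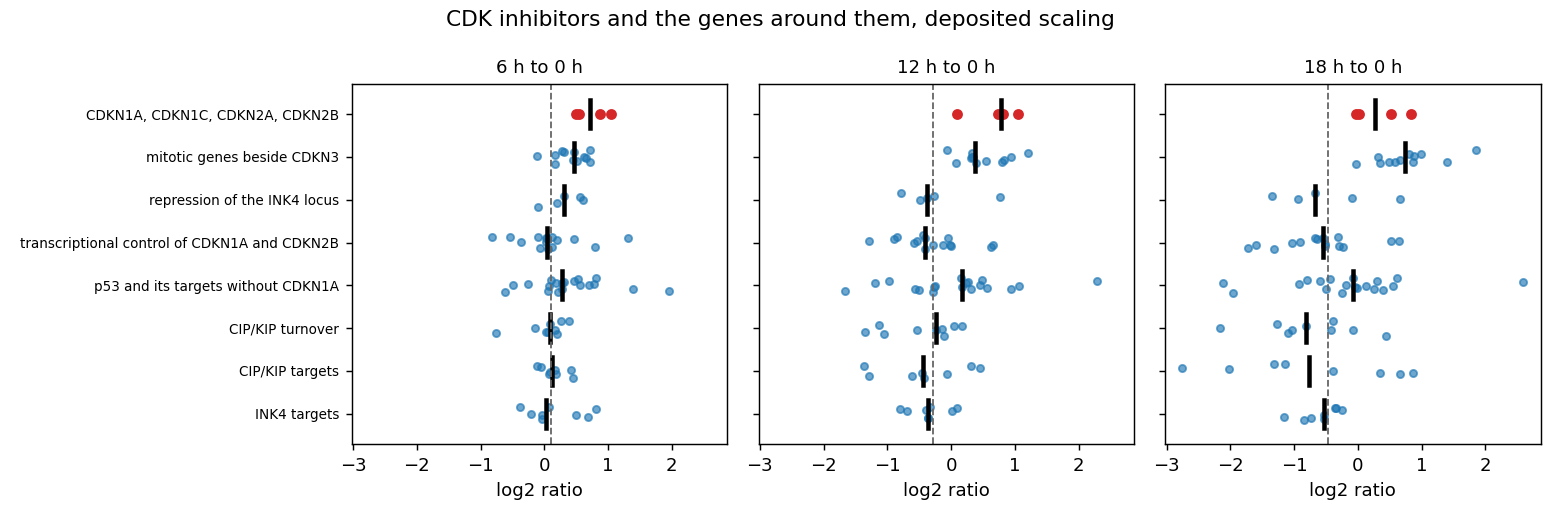
Log2 ratios to 0 h at 6, 12 and 18 h of MTA, with CDKN1A, CDKN1C, CDKN2A and CDKN2B in red. The measured genes of 7 lists around them are in blue, with black bars at medians and dashed lines at the median of all genes. At 18 h the 4 red genes have a median of 0.27 and the mitotic genes 0.73, right of the dashed line at −0.47. The targets and turnover genes of the CIP/KIP family have medians of −0.77 and −0.82, to the left of that line. The inhibitor CDKN1B, at −0.34 at 18 h, is not shown.

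Genes with the course most like that of a member were sought by the root mean square difference of the 3 log2 ratios, among 9779 other genes whose signal was at or above 34.0 on all 4 arrays. The 3 ratios share 1 control array, and a likeness over so few values is a description only. For CDKN1A 34 genes lay within a difference of 0.2, for CDKN2B 99 and for CDKN3 263. Nearest to CDKN1A were GPCPD1 (0.057), GLRX (0.086), SH3BGR (0.091), ACBD4 (0.096) and SIPA1 (0.10). GPCPD1 had 128, 274.5, 236 and 122 on the 0, 6, 12 and 18 h arrays, and GLRX, a glutaredoxin, had 685, 1539, 1262 and 658. With the deposited scaling both were high at 6 and 12 h and near their 0 h level at 18 h, as CDKN1A was.

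Nearest to CDKN2B were CDH3, which encodes P-cadherin (0.041), ZFYVE1 (0.044), PLCG2 (0.049), LINC01588 (0.063) and PLOD2 (0.066). CDH3 had 153, 281, 320.4 and 287 on the 0, 6, 12 and 18 h arrays. Nearest to CDKN3 were HID1 (0.0302), BUB1 (0.035), CENPA (0.039), COX19 (0.041) and NBEA (0.058). BUB1, a kinase of the spindle checkpoint, had 350.0, 479, 446 and 524 at 0, 6, 12 and 18 h, and CENPA, the histone of centromeres, had 90.1, 124.0, 124.6 and 134.8. For both, as for CDKN3, the 18 h array was the highest, and so it was for HID1, COX19 and NBEA.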

How the data were processed

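Gene expression was measured on Affymetrix Human Genome U133 Plus 2.0 arrays, 1 per time. The values the authors deposited are linear MAS5 intensities, for which the submitters' processing notes name Affymetrix Expression Console, and their scaling target is not stated in what was read here. Control probe sets (62) were left out. Gene symbols came from the platform annotation, where 41091 of 54613 probe sets had 1 gene symbol, 1801 several and 11721 none. Only those with 1 symbol were named.

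Log2 ratios to the 0 h array used the signals as deposited, with no pseudocount. With 1 array per time there are no p-values. The members and gene lists were chosen with earlier results of these data known, and the lists came from textbook knowledge. Named were all member probe sets, CDKN1B, of each list the 2 lowest and 2 highest genes at 18 h and any beyond 1.5, and the 5 nearest courses to CDKN1A, CDKN2B and CDKN3. Alternatives were 6 other scalings, a pseudocount of 2.90 (percentile 20 of all signals), means over a gene's probe sets, a threshold of 1 and other filters (none, the 10000 brightest, the lowest signal). The ratio of 18 h to 6 h for CDKN1A, the member counts beyond 1 and the order of times under other scalings were added after the data had been seen. The calculation was tested on simulated data. Upstream sequences came from RefSeq, GRCh38.p14. Python 3.11.15, NumPy 2.4.6, pandas 2.3.3 and matplotlib 3.10.9 were used.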

Additional observations from a re-analysis of the deposited data

How the results depend on the processing

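No paired analysis was possible because each time has 1 array. A ratio or median was taken as moved where it differed from the deposited scaling by more than the SD between probe sets of a gene, and 28 of 310 comparisons of ratios and medians with an alternative moved. Of 66 counts past 1.5, 62 stayed at 0, where there was little room to move, and of 42 counts of member probe sets beyond 1 under other scalings 14 moved. At 18 h, with quantile normalization and with division by the trimmed mean (2% at each end), the log2 ratio of CDKN1A was 0.50 and 0.49, of CDKN1C 1.10 and 1.03, of CDKN2A 0.58 and 0.53, and of CDKN3 1.18 and 1.11, and for CDKN2B it was 1.36 with the trimmed mean. In the same order the list medians at 18 h were 0.056 and −0.013 for INK4 targets, −0.19 and −0.26 for CIP/KIP targets, −0.21 and −0.30 for CIP/KIP turnover, 0.46 and 0.44 for p53 targets, 0.020 and −0.028 for transcriptional control, −0.074 and −0.16 for the Polycomb list, and for the mitotic list 1.25 with the trimmed mean. The CDKN1A ratio of 18 h to 6 h was −0.49 after median centring, −0.45 after quantile normalization and −0.46 with the trimmed mean. With the mean over all probe sets, dim ones included, CDKN2A had 0.81 at 12 h, and CDKN2B had 0.14 at 6 h and −0.29 at 18 h. The count of member probe sets above 1.5, which was 0 at each time, was 1 at 6 h and 1 at 12 h with a threshold of 1, and 1 at 12 h and 1 at 18 h without a filter. Signals under 34.0 limit what can be said of CDKN2D and of the second CDKN2B probe set.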
